A study of Mus musculus with 2 samples.

Results

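The genes described here are 10 growth and matrix factors that tumor-infiltrating myeloid cells are known to release or display, followed in immune cells of mouse GL261 gliomas: Spp1, Igf1, Pgf, Gpnmb, Tgfb1, Tgfbi, Fn1, Thbs1, Mmp12 and Mmp14. They were chosen by symbol, and all 10 were found among the 31053 genes of both count matrices. GL261 is a mouse glioma cell line, of which 100000 cells were placed in the brain. The WT group were C57BL/6 mice without the CD169-DTR allele, and the CD169-DTR group were heterozygous for it. CD169, encoded by Siglec1, is a sialic acid-binding lectin of macrophages, and DTR is the diphtheria toxin receptor, so that cells with an active Siglec1 gene can be killed by the toxin. Mice of both groups received diphtheria toxin 1 day before and 4 days after the tumor cells. Live CD45.2+ cells were sorted 10 days after inoculation and sequenced by droplet 3' single-cell RNA-seq, as 1 library per group, each pooled from 3 mice. No replicate library exists, so no test was possible. Every interval below is a 95% interval that covers counting error only, and the genotype, the pool of mice and the library cannot be told apart.

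Osteopontin (Spp1) and insulin-like growth factor 1 (Igf1) are secreted ligands that act through integrins or CD44 and through the IGF1 receptor. TGF-beta (Tgfb1) is secreted in a latent form, is freed by integrins, proteases or thrombospondin 1 (Thbs1), and induces matrix genes such as Tgfbi and Fn1. Proteases such as Mmp12 and Mmp14 cut the matrix that these proteins build. In gliomas, microglia and monocyte-derived macrophages are known sources of several of them.

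Barcodes with at least 1000 UMIs (unique molecular identifiers, 1 per captured RNA molecule) and at most 17% mitochondrial UMIs were taken as cells, which gave 10107 WT and 7604 CD169-DTR cells with medians of 7776 and 8099.5 UMIs. The libraries shared 21 cell barcodes. Cells were clustered without the 10 genes, so no member helped to define a cluster, and clusters were named from marker genes. Microglia made up 47.6% of WT and 71.6% of CD169-DTR cells, macrophages 21.6% and 8.39%. The median macrophage had 7330 UMIs in WT and 12926.5 in CD169-DTR. Siglec1 stood at 38.9 CPM (counts per 1000000 UMIs of the class) in WT and 12.6 CPM in CD169-DTR macrophages, and at 19.0 and 5.60 CPM in microglia. Summed T cell markers in macrophages were 16.2 CPM in WT and 5.80 CPM in CD169-DTR, and NK cell markers 16.7 and 1.86 CPM, with 8 of 8 NK markers higher in WT. Red blood cell markers were at 55.3 and 0.985 CPM, and endothelial markers at 20.5 and 7.99 CPM. Their part in the results was not tested. Endothelial, choroid plexus and pericyte clusters were present despite the CD45.2 gate.

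The upstream sequences of Spp1, Igf1 and Gpnmb are shown because, of all pairs of members, Igf1 with Spp1 and Gpnmb with Spp1 had the highest correlations across clusters of the WT library, as described further on. Of the 10 genes, 8 matched the RefSeq promoter table of GRCm38.p6, the assembly of the deposited files (mm10), with 11 transcription starts in all, and Fn1 and Thbs1 did not match. Each sequence is the 250 bases before a start, 5′ to 3′ on the gene's strand, and capitals mark matches to any of 4 searched motifs.
Spp1, chr5:104434861-104435110, + strand: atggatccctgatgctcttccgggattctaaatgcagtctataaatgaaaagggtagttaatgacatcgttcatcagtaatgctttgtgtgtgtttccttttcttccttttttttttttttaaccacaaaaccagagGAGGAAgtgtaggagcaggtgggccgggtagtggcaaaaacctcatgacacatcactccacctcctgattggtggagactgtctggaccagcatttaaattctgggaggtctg
Igf1, chr10:87860861-87861110, + strand: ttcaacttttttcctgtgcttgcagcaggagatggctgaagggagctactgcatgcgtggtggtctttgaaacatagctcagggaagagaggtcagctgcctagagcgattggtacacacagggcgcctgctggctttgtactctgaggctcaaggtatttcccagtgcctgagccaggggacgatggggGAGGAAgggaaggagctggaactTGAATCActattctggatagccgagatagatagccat
Gpnmb, chr6:49036268-49036517, + strand: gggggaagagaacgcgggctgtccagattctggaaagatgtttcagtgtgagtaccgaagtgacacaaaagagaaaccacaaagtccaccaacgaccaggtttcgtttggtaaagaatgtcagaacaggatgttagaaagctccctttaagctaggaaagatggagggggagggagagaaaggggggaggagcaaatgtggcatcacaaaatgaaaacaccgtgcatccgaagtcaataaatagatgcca
The motifs were searched on both strands as AP-1 (TGANTCA), MiT/TFE (TCANGTG), C/EBP (TTGCNNAA) and PU.1 (GAGGAA). In the windows shown, Spp1 held 1 PU.1 match, Igf1 held 1 PU.1 and 1 AP-1 match that do not overlap, and Gpnmb held no match. The other Spp1 start, whose window is not shown, held a C/EBP match and no PU.1 match. Of 32851 upstream windows of the same length in the table, 23.3% held the PU.1 letters, 6.75% AP-1, 9.56% C/EBP and 12.2% MiT/TFE. These matches describe the letters only.

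Macrophages carried higher levels than microglia for most of the 10 genes. Gene identifiers are those of the files, and the coordinates given with them are those of the whole gene in the GENCODE annotation of GRCm38 (mm10). The UMI counts mark single molecules at the 3' end, so levels of different genes can be compared without a length correction. In WT, 10 of 10 members had a higher CPM in macrophages than in microglia, and in CD169-DTR 9 of 10, with Tgfb1 the exception at 0.922-fold. The same count was not made over all genes, so these counts have no background beside them. In WT, Tgfb1 was only 1.06-fold higher, and Pgf rested on 27 macrophage and 14 microglial UMIs. The fold of macrophages over microglia was 20.4 in WT and 54.7 in CD169-DTR for Gpnmb, 22.0 and 27.3 for Tgfbi, and 21.1 and 18.3 for Thbs1. For Spp1 it was 1.87 and 3.83, and for Igf1 1.17 and 1.86. In WT macrophages Spp1 ranked 89th and Tgfbi 114th of 16591 genes with a UMI, while Pgf ranked 10611th.

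**Figure D1:**
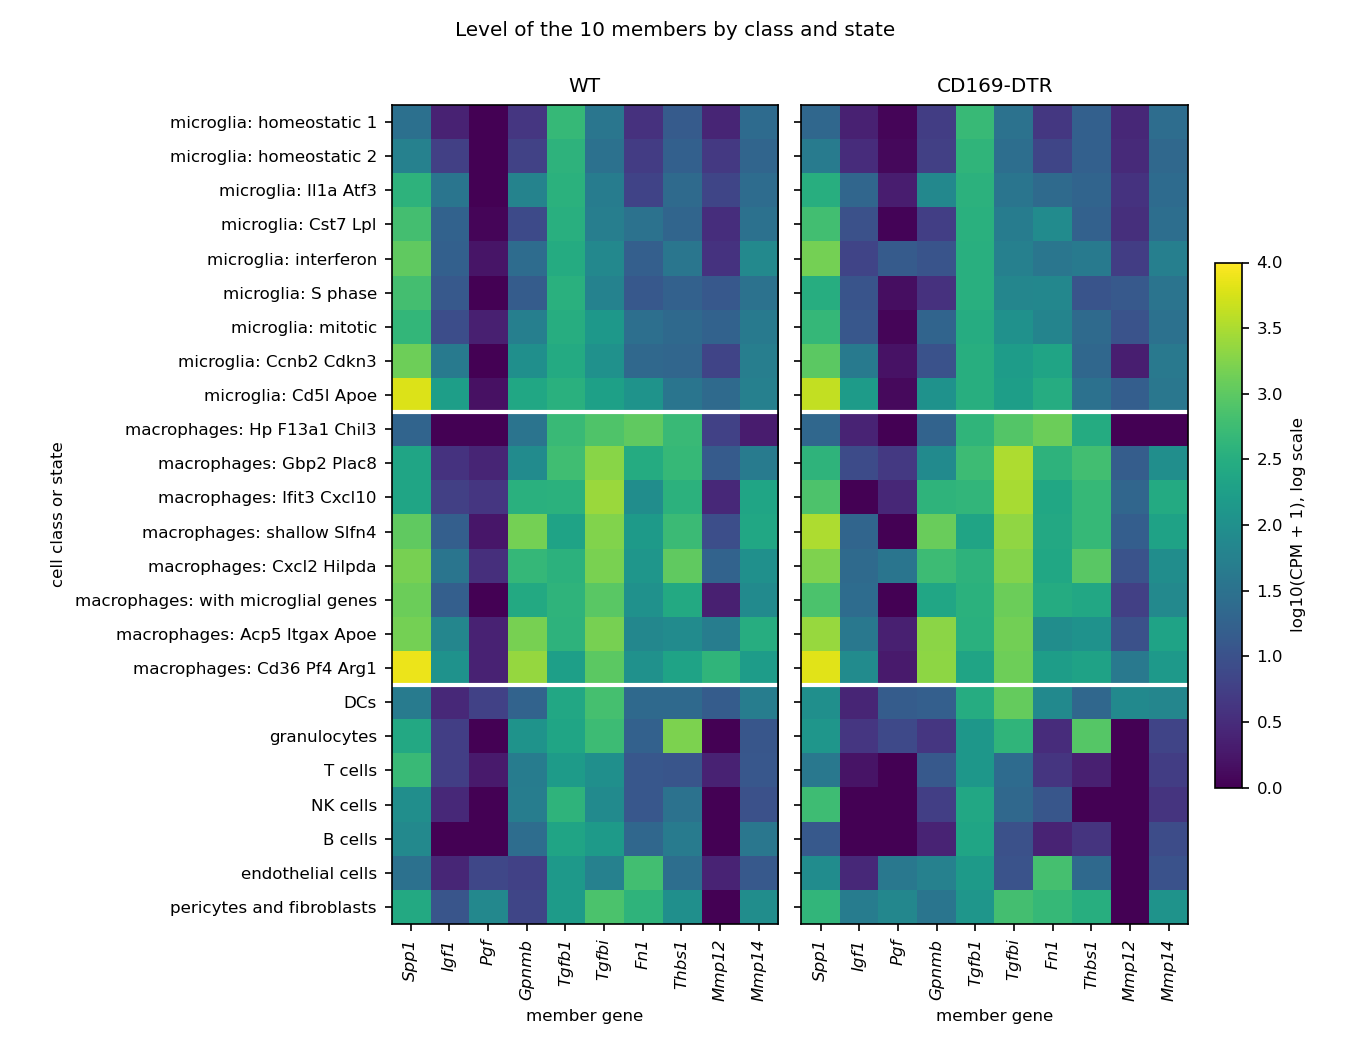
Level of each member (columns) in microglial clusters, macrophage states and other classes (rows) of the WT library (left) and the CD169-DTR library (right), as log10(CPM + 1). Spp1 is brightest in the Cd36 Pf4 Arg1 macrophages (7573 and 6496 CPM) and the Cd5l Apoe microglia (6258 and 4216 CPM).

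Because microglia outnumbered macrophages, the class that held most UMIs of a gene was not always the class with the highest level. Macrophages held 79.6% of the Gpnmb UMIs in WT cells and 75.5% in CD169-DTR cells, and 66.0% and 64.8% of those of Tgfbi. Microglia held 53.6% and 58.1% of the Spp1 UMIs, 64.2% and 72.6% of those of Igf1, and 53.1% and 76.7% of those of Tgfb1. The source of Fn1 was spread over macrophages (42.1% and 27.6%), endothelial cells (33.7% and 23.5%) and microglia (12.1% and 36.4%). Pgf was spread over several classes. Its UMIs lay in DCs (27.9% and 12.6%), in pericytes and fibroblasts (20.1% and 10.6%) in endothelial cells (11.5% and 31.2%), in macrophages (11.1% and 14.1%) and in microglia (5.74% and 18.1%). A cluster without a class name, led by Acta2 and Tagln, held 44 of 244 WT and 41 of 404 CD169-DTR Pgf UMIs. Of the 126 Pgf UMIs of CD169-DTR endothelial cells, 2 cells held 54 and 53. Shares of a pool move with the number of cells of each class, which differed between the libraries.

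**Figure D2:**
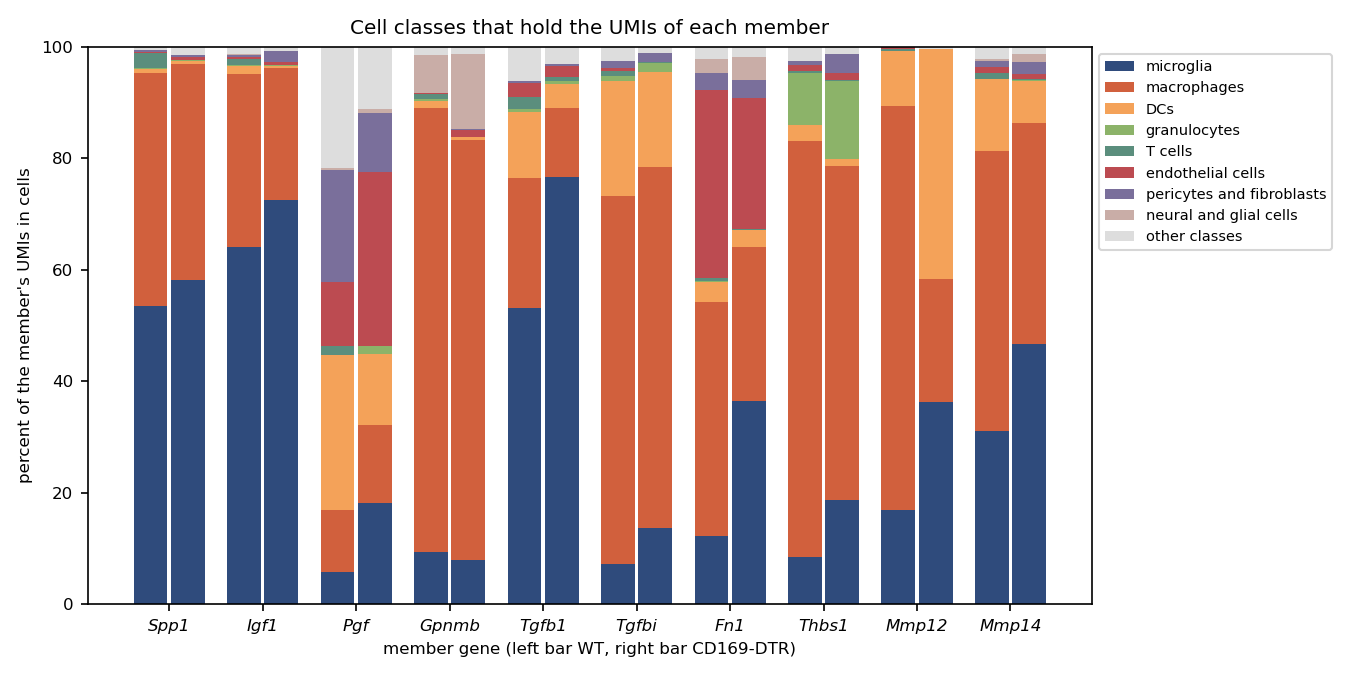
Percent of the UMIs of each member that each cell class held, with the left bar of a pair for WT and the right bar for CD169-DTR. Macrophages hold most Gpnmb and Tgfbi UMIs in both libraries, and the microglial share of Fn1 is 12.1% in WT and 36.4% in CD169-DTR.

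Several members were concentrated in few cells. In WT macrophages, 26 of 2184 cells held 50% of the Spp1 UMIs, and in CD169-DTR macrophages 28 of 638 cells did. In microglia the numbers were 26 of 4814 WT and 33 of 5448 CD169-DTR cells. Of Mmp12, 1 WT macrophage with 58281 UMIs in all held 779 of 1336 UMIs. Pgf was similar, with 36 of 57 macrophage UMIs and 50 of 73 microglial UMIs of the CD169-DTR library each in 1 cell. Counting intervals take each UMI as independent and are too narrow for such genes. The share of cells with a UMI is therefore given beside the level, after each cell was thinned to 2000 UMIs. This left out 96 WT and 5 CD169-DTR macrophages and 121 and 92 microglia with fewer UMIs.

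**Figure D3:**
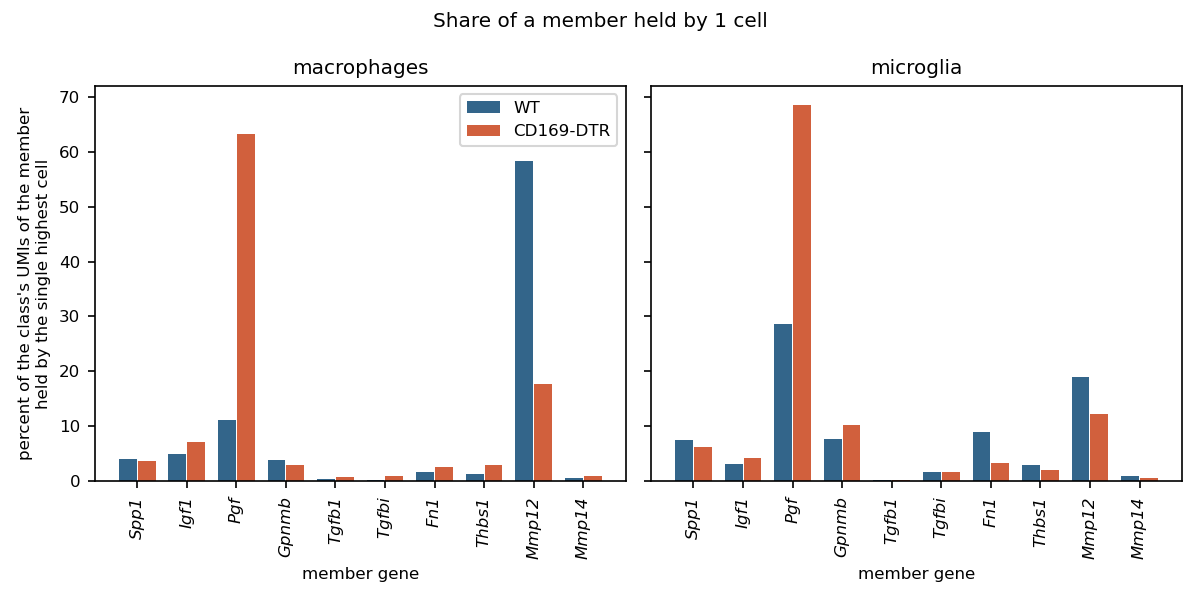
Percent of the UMIs of each member in macrophages (left) and microglia (right) that the single highest cell of the library held. The highest bars are Pgf in CD169-DTR (63.2% and 68.5%) and Mmp12 in WT macrophages (58.3%).

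T cells, which should lack most of these genes, give the background from free RNA at a median of 6574 (WT) and 6642 (CD169-DTR) UMIs. After thinning, 4.14% of WT and 3.79% of CD169-DTR T cells held an Spp1 UMI, 3.49% and 1.90% a Gpnmb UMI, and 5.66% and 1.90% a Tgfbi UMI. Igf1 was seen in 0 of 459 and 0 of 211 T cells, which allows a share of up to 0.654% and 1.42% at this depth. At 4500 UMIs per cell, 5 of 367 WT and 1 of 175 CD169-DTR T cells held one. T cells make Tgfb1 themselves, and 92 of 459 and 44 of 211 of them held a UMI of it. The CPM of T and NK cells was set by single cells for Spp1. In WT T cells 2 cells held 1027 and 832 of 2175 Spp1 UMIs, and in CD169-DTR NK cells 1 cell held 301 of 374.

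Between the libraries, a gene was counted as higher or lower in WT when its log2 ratio of CPM, WT over CD169-DTR, was at least 0.5 in size. In macrophages 1 of the 10 members was higher, where 11.7% of 11665 genes with at least 20 UMIs were, and 3 were lower, where 9.76% were. The median log2 ratio was −0.15 over the members and −0.02 over all genes. In microglia 2 members were higher, against 4.62% of 13763 genes, and 2 were lower, against 5.59%. Their median was 0.27, beside −0.04 over all genes. All 10 members passed the minimum of 20 UMIs in both classes.

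**Figure D4:**
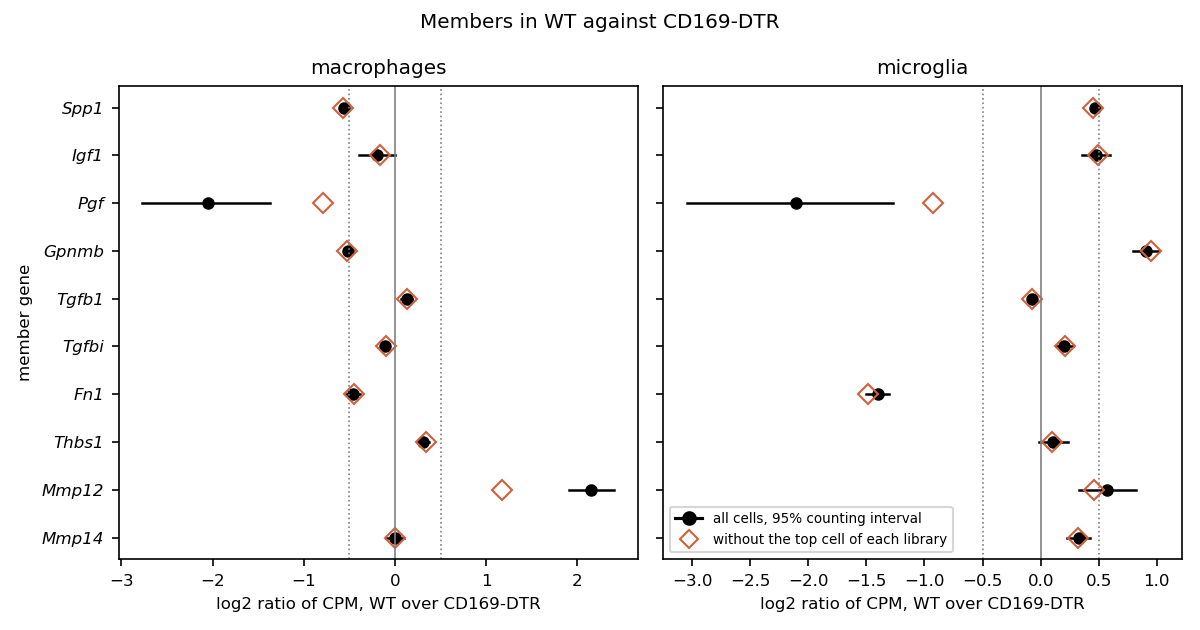
Log2 ratio of CPM, WT over CD169-DTR, of each member in macrophages (left) and microglia (right). Filled points have 95% counting intervals, open diamonds leave out the cell with most UMIs of the gene in each library, and dotted lines mark 0.5 in size. Mmp12 and Pgf in macrophages move from 2.15 to 1.17 and from −2.05 to −0.79 without that cell.

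Spp1 (ENSMUSG00000029304, chr5:104435118-104441050, + strand), a secreted phosphoprotein that binds integrins and CD44, was lower in WT macrophages and leaned the other way in microglia. In macrophages it was at 1846 CPM (interval 1826 to 1866) in WT and 2727 CPM (2694 to 2762) in CD169-DTR, a log2 ratio of −0.56 (−0.59 to −0.54). It was inside the limit of 0.5 with the same weight per macrophage state in both libraries (−0.44) and with free RNA subtracted (−0.44). The same held with the libraries merged without integration (−0.50 after rounding). At equal depth 25.9% of WT macrophages (24.0 to 27.9%) and 41.2% of CD169-DTR macrophages (37.4 to 45.2%) held an Spp1 UMI. In microglia it was at 987 and 713 CPM, a log2 ratio of 0.47, with 16.6% and 13.6% of cells. The microglial ratio lies just inside the limit of 0.5.

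Re-clustering the macrophages gave 8 states, named here by their leading genes. Spp1 ranged from 18.1 CPM in the Hp F13a1 Chil3 state, whose leading genes are those of monocytes, to 7573 CPM in the Cd36 Pf4 Ccl8 Arg1 state of WT. The latter state held 63.6% of the WT and 55.0% of the CD169-DTR macrophage Spp1 UMIs. In it 5 of 7 border-associated and 6 of 7 mature tumor macrophage markers were high. Of the border-associated markers, 4 were also high in the state with microglial markers and 4 in a state led by Cxcl2. With all cells Spp1 was above 0 in log2 ratio only in the Cd36 Pf4 Ccl8 Arg1 state and the state with microglial markers. In the former it was 0.22 (7573 against 6496 CPM). In the latter 1 WT cell held 991 of 2052 WT Spp1 UMIs, and 81.4% of its cells were in the highest 8% of doublet scores. With all cells the largest differences were in a shallow state led by Slfn4 (1041 and 3182 CPM, log2 ratio −1.61) and an interferon state led by Ifit3 and Cxcl10 (226 and 757 CPM, −1.74). Without the cell with most Spp1 UMIs in each library these ratios were −1.42 and −1.19, that of the Gbp2 Plac8 state moved from −0.81 to −2.04, and that of the Hp F13a1 Chil3 state turned from −0.20 to 0.84. Of the cells left out, 1 CD169-DTR cell held 212 of the 413 Spp1 UMIs of the interferon state. In the interferon state a UMI was found in 19.0% of WT cells and 21.0% of CD169-DTR cells. An Acp5 Itgax Apoe state had 1458 and 2450 CPM, with 26.3% and 58.3% of cells. The states themselves had different shares, since the shallow state made up 32.0% of WT and 14.6% of CD169-DTR macrophages, and the Acp5 Itgax Apoe state 5.22% and 16.9%.

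Microglial Spp1 followed the state of the cells over a wide range. Spp1 was at 28.4 and 20.5 CPM in the larger cluster with homeostatic markers, at 643 and 623 CPM in a Cst7 Lpl cluster with disease-associated markers, and at 6258 and 4216 CPM in a Cd5l Apoe cluster. In the last cluster 57.5% and 55.4% of cells held a UMI. The interferon cluster went the other way in level, at 1069 CPM in WT and 1448 CPM in CD169-DTR, although 20.6% and 17.1% of its cells held a UMI. A single CD169-DTR cell of that cluster held 2314 Spp1 UMIs. With all cells, 2 of 9 microglial clusters had a log2 ratio below 0, the other being the mitotic cluster (446 and 468 CPM, −0.07). Without the cell with most Spp1 UMIs in each library, 4 of 9 were below 0. Among these the S phase cluster moved from 1.06 to −0.53, since 1 WT cell held 974 of its 1347 WT Spp1 UMIs.

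Igf1 (ENSMUSG00000020053, chr10:87858265-87937042, + strand), a growth factor for neural and glial cells, was low and ran with Spp1. It was at 27.6 CPM in WT and 19.8 CPM in CD169-DTR microglia (log2 ratio 0.48, interval 0.36 to 0.60), with 2.83% and 1.49% of cells. Of 9 microglial clusters, 8 had a log2 ratio above 0. The Cd5l Apoe cluster had the highest level, 176 and 154 CPM, and held 36.4% of all WT and 42.6% of all CD169-DTR Igf1 UMIs. In macrophages Igf1 was at 32.2 and 36.8 CPM, a log2 ratio of −0.19 whose interval reached 0.00, and 4.12% and 3.79% of cells held a UMI. The ratio was 0.53 in cells of 5000 to 10000 UMIs and 0.28 with every macrophage state given the same weight in both libraries. Among macrophage states it was again highest in the Cd36 Pf4 Ccl8 Arg1 state, at 110 and 83.5 CPM.

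Gpnmb (ENSMUSG00000029816, chr6:49036546-49070929, + strand), a membrane glycoprotein of lipid-handling phagocytes whose outer part can be shed, was lower in WT macrophages, at 852 CPM (838 to 865) against 1216 CPM (1194 to 1239), a log2 ratio of −0.51. In shares of cells the libraries were closer, with 39.5% (37.4 to 41.6%) and 46.3% (42.4 to 50.3%). Within the states its sign was mixed, and 3 of 8 states had a ratio below 0, or 2 of 8 without the highest cell of each library. With every macrophage state given the same weight in both libraries, the ratio in macrophages turned to 0.057. It was highest in the Cd36 Pf4 Ccl8 Arg1 state (2362 and 2122 CPM) and in the Acp5 Itgax Apoe state (1500 and 1987 CPM).

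In microglia Gpnmb was at 41.7 CPM in WT and 22.2 CPM in CD169-DTR, a log2 ratio of 0.91. The shares of microglia with a UMI, 2.77% and 1.72%, were no higher than the 3.49% and 1.90% of T cells, so at this depth they are not told apart from background. T cells held more Gpnmb than the free RNA estimate gives, 197 UMIs in WT where 72.6 were expected. The microglial ratio ranged from 0.75 to 1.01 over the alternatives run. The Cd5l Apoe cluster stood above the share of T cells, with 21.3% of WT and 11.9% of CD169-DTR cells at 238 and 108 CPM. Outside the immune cells, a cluster of 10 WT and 13 CD169-DTR cells with glial markers such as Olig1 had Gpnmb at 2421 and 2238 CPM, which was 6.85% and 13.4% of all Gpnmb UMIs in cells.

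Pgf (ENSMUSG00000004791, chr12:85166635-85177790, - strand), a ligand of the VEGF receptor FLT1, was hardly present in myeloid cells. Macrophages held 27 UMIs in WT and 57 in CD169-DTR, and the log2 ratio of −2.05 (−2.77 to −1.37) moved to −0.79 without the highest cell and −0.22 without the 2 highest cells of each library. At equal depth 8 of 2088 WT and 2 of 633 CD169-DTR macrophages held a UMI. In microglia 1 of 4693 and 4 of 5356 cells did. Among the named classes the highest level was in pericytes and fibroblasts, at 72.2 and 70.3 CPM. An unnamed cluster led by Acta2 and Tagln had more, 128 CPM in WT and 97.4 CPM in CD169-DTR, on 44 and 41 UMIs.

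Tgfb1 (ENSMUSG00000002603, chr7:25687002-25705077, + strand) was the most evenly spread member. It was at 374 CPM in WT and 343 CPM in CD169-DTR macrophages (log2 ratio 0.13) and at 353 and 372 CPM in microglia (−0.07), and 49.3% and 52.4% of microglia held a UMI. No microglial cluster and no macrophage state passed 0.5 in size. It was highest among microglial clusters in the larger homeostatic one, at 484 and 502 CPM, and lowest among macrophage states in the Cd36 Pf4 Ccl8 Arg1 state, at 179 and 214 CPM, where Spp1 was highest. NK cells had 400 and 247 CPM.

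Tgfbi (ENSMUSG00000035493, chr13:56609523-56639562, + strand), a TGF-beta-induced matrix protein that binds integrins and collagens, was held by more macrophages than any other member. Its UMIs were in 84.3% of WT and 87.8% of CD169-DTR macrophages, at 1590 and 1711 CPM (log2 ratio −0.11). It was below 0 in 7 of 8 states, and past −0.5 in 1, the Gbp2 Plac8 state (1922 and 3266 CPM, −0.76). DCs had 654 CPM in WT and 1120 CPM in CD169-DTR, in 53.1% and 65.1% of cells. In microglia 9.21% and 8.50% of cells held a UMI, at 72.2 and 62.7 CPM.

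Fn1 (ENSMUSG00000026193, chr1:71585520-71653200, - strand), fibronectin, had a log2 ratio below 0 in both classes, and in microglia it was past the limit of 0.5 and had the same sign in every cluster. WT microglia had 24.1 CPM (22.7 to 25.7) and CD169-DTR microglia 63.9 CPM (61.7 to 66.1), which is a log2 ratio of −1.40 (−1.51 to −1.30). Fn1 was below 0 in 9 of 9 microglial clusters and at −0.5 or less in 7, with a range from −0.31 to −3.33. In the Cd5l Apoe cluster it was at 111 and 298 CPM, in 12.2% and 22.3% of cells, and in a Ccnb2 Cdkn3 cluster at 21.6 and 217 CPM. Over all microglia the shares of cells were closer, at 2.47% (2.05 to 2.96%) and 3.42% (2.95 to 3.94%), against 0.436% and 1.42% of T cells. Leaving out the highest cell of each library gave −1.49.

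Other classes with Fn1 were followed by their markers in microglia. Summed macrophage markers stood at 2706 CPM in WT and 2357 CPM in CD169-DTR microglia, and endothelial markers at 18.7 and 20.3 CPM, with 0 of the 12 and 0 of the 7 markers at 0. Pericyte and fibroblast markers were at 3.28 CPM, with 1 of 7 at 0, and 5.20 CPM. Granulocyte markers were at 199 and 448 CPM, with 7 of 8 lower in WT. Granulocytes themselves had Fn1 at 16.8 and 2.22 CPM. The small cluster with glial markers had Fn1 at 388 and 438 CPM, and neural and glial markers in microglia stood at 128 and 127 CPM. The part of these classes in the result was not tested.

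In macrophages Fn1 was at 202 CPM in WT and 277 CPM in CD169-DTR (log2 ratio −0.46, interval −0.53 to −0.38), in 22.3% and 28.6% of cells. The ratio was below 0 in 8 of 8 states and at −0.5 or less in 5. Unlike Spp1, Fn1 was highest in the monocyte-like Hp F13a1 Chil3 state, at 1049 and 1243 CPM in 72.3% and 75.4% of cells, and it was 70.7 and 89.4 CPM in the Acp5 Itgax Apoe state. Endothelial cells had 625 and 666 CPM.

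Thbs1 (ENSMUSG00000040152, chr2:118111876-118127133, + strand), thrombospondin 1, had most of its UMIs in macrophages and its highest class level in granulocytes. Macrophages had 466 CPM in WT and 375 CPM in CD169-DTR (log2 ratio 0.31), in 37.8% (35.7 to 39.9%) and 33.5% (29.8 to 37.3%) of cells. Its highest state was led by Cxcl2, Il1b and Hilpda, at 1065 and 963 CPM in 63.3% and 55.1% of cells. Granulocytes had more, 1612 and 888 CPM, in 46.3% and 25.9% of cells, with 61 and 68 UMIs in the highest cell. A fibroblast cluster of 17 WT and 18 CD169-DTR cells, led by Mgp and Dcn, had 199 and 499 CPM. Microglial Thbs1 was at 22.1 and 20.5 CPM (0.11). Neither sign held under every alternative, since the macrophage ratio was −0.13 in cells of 5000 to 10000 UMIs and the microglial ratio −1.00 with free RNA subtracted. Thbs1 lies 12.9 Mb from Siglec1 on chromosome 2, the site of the DTR allele.

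**Figure D5:**
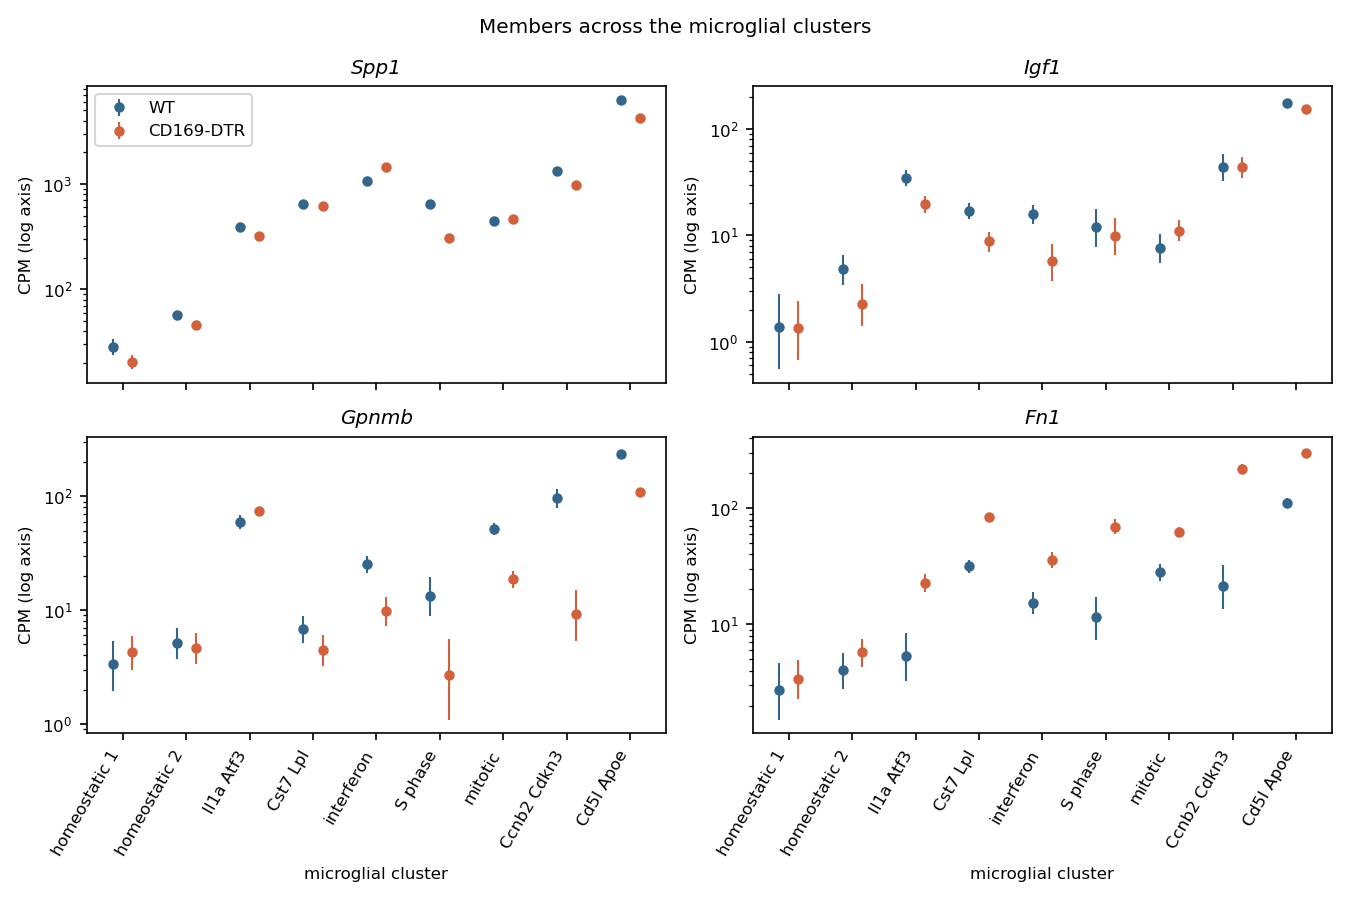
CPM (log axis) of Spp1, Igf1, Gpnmb and Fn1 in the 9 microglial clusters of the WT (blue) and CD169-DTR (orange) libraries, with 95% counting intervals. The Cd5l Apoe cluster at the right is highest for all 4 genes in both libraries, and Fn1 has a log2 ratio below 0 in 9 of 9 clusters.

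Mmp12 (ENSMUSG00000049723, chr9:7344381-7369499, + strand), the macrophage elastase, had the highest log2 ratio in macrophages, and it rested on few cells. Macrophages had 74.3 CPM in WT and 16.7 CPM in CD169-DTR, a log2 ratio of 2.15 (1.91 to 2.40) that was 1.17 without the highest cell of each library. At equal depth 31 of 2088 WT (1.48%) and 11 of 633 CD169-DTR macrophages (1.74%) held a UMI, so the share of cells was not higher in WT. The Cd36 Pf4 Ccl8 Arg1 state, which contained the cell with 779 UMIs, had 409 and 39.8 CPM. In microglia 0.490% and 0.392% of cells held a UMI, with a log2 ratio of 0.57 that fell below the limit, to 0.46, without the highest cells. DCs went the other way, at 13.4 and 77.8 CPM, and 2 CD169-DTR cells held 78 and 73 of 287 UMIs.

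Mmp14 (ENSMUSG00000000957, chr14:54431612-54445364, + strand), a membrane-bound protease that activates MMP2, had the same level in macrophages of both libraries, 143 CPM in each, with a log2 ratio of 0.00 (−0.10 to 0.10). The shares of cells were 26.0% and 23.1%. It was highest in the Acp5 Itgax Apoe state of WT, at 305 CPM against 209 CPM in CD169-DTR, and near 0 in the Hp F13a1 Chil3 state, with 1.01 CPM in WT and no UMI in CD169-DTR. In microglia it was at 37.0 and 29.5 CPM (0.33), in 6.71% and 4.99% of cells.

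Several pairs of members ran together across cell types. Over the 24 WT and 19 CD169-DTR clusters of at least 50 cells, which share library and depth, Pearson's r of log2(CPM + 1) was 0.87 and 0.72 for Igf1 with Spp1, 0.69 and 0.50 for Gpnmb with Spp1, 0.69 and 0.75 for Thbs1 with Tgfbi, and 0.63 and 0.83 for Mmp14 with Mmp12. Pairs outside these also reached such values, with 0.65 and 0.49 for Gpnmb with Tgfbi, 0.38 and 0.73 for Mmp12 with Tgfbi, and 0.19 and 0.62 for Fn1 with Spp1. Single cells showed the same for Spp1 and Gpnmb. Of WT macrophages with an Spp1 UMI at equal depth 64.5% also held Gpnmb, against 30.7% of the others, and in CD169-DTR 70.5% and 29.3%. A macrophage held a median of 3 members and a microglial cell 1.

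Among the other genes, those most like each member over the WT clusters were named by the same r. Cd5l, a lipid-binding secreted protein of macrophages, was closest to Igf1 (0.84, and 0.87 in CD169-DTR). Ms4a7, a marker of macrophages, was closest to Gpnmb (0.86 and 0.76), Wfdc17 to Tgfbi (0.93 and 0.78), Arg2 to Thbs1 (0.92 and 0.71), and Ikbke to Spp1 (0.84 and 0.53). Siglec1, the CD169 gene itself, was among the 3 closest to Mmp14 (0.81 and 0.85).

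Cells with and without a Siglec1 UMI could be compared within the WT library. Of WT macrophages, 528 had such a UMI and 1656 had none, with medians of 7486 and 7262 UMIs. At equal depth Mmp14 was at 212 CPM in the former and 166 CPM in the latter, and Tgfbi at 1878 and 1588 CPM. Fn1 (148 and 224 CPM), Thbs1 (405 and 567 CPM), Spp1 (1091 and 1352 CPM) and Mmp12 (10.6 and 33.1 CPM) were lower in cells with the UMI. These WT Mmp12 levels rest on 11 and 104 UMIs. Few cells held much of Spp1 and Mmp12, as given above, and this split was not repeated without the highest cells. In CD169-DTR macrophages, 92 cells had a Siglec1 UMI and 546 had none, with medians of 16244 and 12516.5 UMIs. Cells were split on their UMIs before thinning. There Spp1 (2853 and 2254 CPM), Mmp14 (120 and 169 CPM) and Thbs1 (538 and 425 CPM) were in the order opposite to WT. The Mmp14 levels rest on 22 and 183 UMIs, with a log2 ratio of −0.50 whose interval spans 0 (−1.21 to 0.14). That of Thbs1 was 0.34 (0.01 to 0.66). A missing UMI does not show that the gene was off.

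Genes around the members were read from 8 lists. Their counts stand beside 11.7% of all genes higher and 9.76% lower in WT macrophages, and 4.62% and 5.59% in WT microglia. Of 11 measured genes of TGF-beta activation and response, 3 were higher and 1 lower in WT macrophages, with a median log2 ratio of 0.22, among them Tgif1, a repressor of SMAD signaling (184 and 118 CPM, 0.64). In microglia 0 of 14 were higher and 3 lower, with a median of −0.16. Of 13 other matrix and matricellular genes in macrophages 3 were higher and 3 lower (median 0.16). Ecm1 was lower in WT, at 66.0 and 176 CPM (−1.42). In microglia 2 of 20 were higher and 4 lower (−0.12). There Lgals3, galectin-3, was at 224 and 108 CPM (1.05).

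Proteases and their inhibitors were balanced in macrophages, with 3 of 19 higher and 3 lower (median −0.02), among them Timp1 (30.7 and 19.8 CPM, 0.63) and Mmp8 (13.9 and 24.0 CPM, −0.79). In microglia 2 of 18 were higher and 1 lower (0.05). Of 18 other growth factors 6 were higher and 2 lower in WT macrophages (median 0.13). Gdf15, a stress-induced TGF-beta family member, was at 370 and 204 CPM (0.85), Nrg1 at 12.1 and 5.15 CPM (1.23), and Areg at 9.68 and 17.5 CPM (−0.86). In microglia 1 of 20 was higher and 1 lower (0.08).

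Of 21 receptors of the members 2 were higher and 3 lower in WT macrophages (median −0.05). Flt1, which binds Pgf, was at 21.7 and 10.5 CPM (1.05), and Itga9, an integrin chain that binds osteopontin, at 7.07 and 16.9 CPM (−1.25). In microglia 1 of 22 was higher and 1 lower (0.03). The IGF-binding list had 1 of 5 higher and 1 lower in macrophages (−0.21) and 1 of 7 and 1 in microglia (−0.10). Hypoxia genes had 1 of 14 higher and 1 lower in macrophages (−0.14) and in microglia (−0.06). Of 24 genes that cell handling induces, 2 were higher and 0 lower in WT macrophages (median 0.25). These counts are no larger than the shares of 11.7% and 9.76% over all genes. In WT microglia 1 was higher and 5 were lower (median −0.42), beside 4.62% and 5.59%. Their part in the results was not tested.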

How the data were processed

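The deposited files are UMI counts per gene and barcode, which the authors made with Cell Ranger 3.1.0 (per the file headers) on mm10 (per the submitters' processing notes), with all barcodes and no normalization. The WT matrix sums to 101808996 UMIs and the CD169-DTR matrix to 84065489. The labels give 1 library per group and the study's methods the pooling.

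Counts were log-normalised to 10000, integrated on 50 dimensions from 2000 variable features and clustered on 30 dimensions at resolution 1, and macrophages again on 10 dimensions at 0.5, with R 4.3.3, Matrix 1.6.5, SeuratObject 5.2.0 and Seurat 5.3.0. Doublet scores came from Scrublet in scanpy 1.11.5, and the other values from scipy 1.17.1, numpy 2.4.6 and pandas 2.3.3 under Python 3.11.15, drawn with matplotlib 3.10.9. A cluster name needed 3 detected markers, thresholds set after the data were seen. Clusters led by Ear2 (116 WT and 97 CD169-DTR cells) and by Acta2 (24 and 22 cells) stayed unnamed and are in no class. Doublets were kept, since the study states no such step.

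UMIs were summed per class and library and scaled to CPM. Intervals are exact Poisson (CPM), Clopper-Pearson (shares) and exact conditional (ratios). The limit for a share of 0 uses 3 counts. The ratio intervals and the thinning were tested on simulated counts. The ratio simulation drew the counts of each gene independently and held no concentration of UMIs in few cells. It therefore does not cover genes such as Spp1 and Mmp12. Genes named are the 10 members, the 2 highest and 2 lowest ratios of each list among genes with at least 100 UMIs, and the 3 genes most like each member, printed in part, and 1 of them is not reported here. The members and lists were chosen with earlier results of these data known. Besides the main settings, 17 other choices of clustering, doublets, free RNA, filters, scaling, weights, cells, thresholds and thinning were tried.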

Additional observations from a re-analysis of the deposited data

How the results depend on the processing

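No paired analysis was possible because each group is 1 library. The main counts were 1 member higher and 3 lower in WT macrophages, and 2 higher and 2 lower in WT microglia. The count lower in macrophages was 1 with the libraries merged without integration, 1 with free RNA subtracted and 1 at a log2 ratio of at least 1. The count higher in macrophages was 0 without the Cd36 Pf4 Ccl8 Arg1 state (no cluster was named border-associated, and this state held most such markers), 0 without cells that hold a marker UMI of another class, and 3 in cells of 5000 to 10000 UMIs. The count higher in microglia was 1 without the highest 8% of doublet scores, 4 with free RNA subtracted, 4 with median-ratio scaling, 1 with the same weight per cluster, 1 without the cell with most UMIs of the gene and 0 at a log2 ratio of at least 1. The count lower in microglia was 4 with free RNA subtracted and 1 for genes with at least 100 UMIs. Gpnmb in macrophages reversed from −0.51 to 0.057 with the same weight per macrophage state in both libraries. The causes of these changes were not tested.

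Over the alternatives run, Spp1 in macrophages ranged from −1.01 to −0.44 and in microglia from 0.20 to 0.72, Fn1 from −0.66 to −0.31 and from −2.06 to −0.97, and Mmp12 in macrophages from 0.39 to 2.37. Spp1, Fn1, Mmp12 and Pgf kept their sign in both classes, and Igf1, Gpnmb, Tgfb1 and Mmp14 in microglia. Free RNA was estimated at 20.3% (WT) and 10.2% (CD169-DTR) of the UMIs of a median cell. This is a high estimate, since lymphocytes also hold some of the marker UMIs it uses. Leaving out a macrophage state with microglial markers, of whose cells 81.4% were in the highest doublet scores, and leaving out the highest cells of other classes, states and clusters were chosen after seeing the data.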
